A study of Triticum aestivum with 4 samples.

Results

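The miR170/miR171 and miR444 families were examined in the crown of winter wheat, the stem base from which leaves, tillers and later the spike arise. Members were the entries of the deposited table named miR170, miR171 or miR444 with a following letter or hyphen. The rule found 5 of 348 miRNAs, namely miR170-3p, miR171a-3p, miR171b, miR171k-5p and miR444b.1. Crowns of the cultivar Shimai 22 grown in the field were sampled at the three-leaf, winter dormancy, spring green-up and jointing stages. The 4 stages differ in season, temperature and development at once, so these cannot be told apart. Total RNA of the biological replicates of a stage was pooled into 1 library, so no stage has a measured spread, and no p-value is given for any difference. Intervals below are 95% intervals of counting error only. The table holds miRNAs alone, so the identity of the tissue could not be checked against marker genes of the crown.

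Plant miRNAs guide the cleavage of mRNAs to which they pair along nearly their whole length. The miR170/miR171 family pairs with mRNAs of GRAS transcription factors of the SCL6 or HAIRY MERISTEM group, which keep shoot meristems active and, in Arabidopsis, are needed for normal branching. The miR444 family is found in monocots, comes from genes transcribed antisense to its targets, and pairs with mRNAs of MADS-box transcription factors. One of its rice targets, OsMADS57, acts on the strigolactone receptor gene D14 and on tiller outgrowth. The target mRNAs were not measured in this table.

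The sequences as deposited are shown because miR171b, miR171a-3p and miR170-3p share a seed and differ by 1 or 2 bases. This bears on how their reads can be assigned. Capitals mark the seed, bases 2 to 8 from the 5′ end.
miR171b: uGAUUGAGccgugccaauauc
miR171a-3p: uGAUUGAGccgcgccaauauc
miR170-3p: uGAUUGAGccgugucaauauc
miR171k-5p: uGGUAUUGuuucggcucaug
miR444b.1: uGUUGUCUcaagcuugcugcc

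The 3 entries miR171b, miR171a-3p and miR170-3p had the seed GAUUGAG in common, and no other entry of the 348 carried it. Counting positions from the 5′ end, miR171a-3p and miR171b differed by C12U alone (the base of the first-named miRNA stands first), and miR170-3p and miR171b by U14C alone. Between miR170-3p and miR171a-3p there were 2 differences, U12C and U14C. These 3 miRNAs and miR444b.1 are 21 nt long and miR171k-5p is 20 nt long. miR444b.1 matched miR171b at 28.6% of positions and shared its seed GUUGUCU with no other entry. By name, miR171k-5p is of the opposite hairpin arm. The program RNAduplex pairs it through 14 base pairs with miR170-3p (-19.4 kcal/mol), miR171b (-18.8) and miR171a-3p (-18.2) alike. With miR444b.1 it gives 10 base pairs and -6 kcal/mol. This pairing is a prediction from the sequences and does not single out miR171b as the partner.

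Known miRNAs were assigned by the authors with fewer than 2 mismatches to miRBase, and how a read that fits several members was divided is not given in the sources used here. Members that differ at a single base may therefore share reads, and their values are not fully separate. Values are reads per 1000000 mapped reads (RPM), not divided by length, and the 3 abundant members compared here have the same length. Worked out from the smallest steps between values, the libraries held between 20533400 and 21888600 mapped reads each. In bulk tissue, a lower RPM can come from fewer cells of a type or from less of the miRNA per cell, and these cannot be told apart.

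In three-leaf crowns miR171b stood at 4056 RPM, in dormant crowns at 3621.1, in crowns of the spring green-up at 1721.8 and in jointing crowns at 1658.6. All 5 members were above 0 in each library. Counting error was small at this depth, with intervals of 4029 to 4083 RPM in the highest library and 1641 to 1676 RPM in the lowest. It was the ninth most abundant of the 348 miRNAs in each of the 4 libraries. The earlier 2 libraries lay within 1.12-fold of each other and the later 2 within 1.04-fold, and both earlier values exceeded both later ones.

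miR171a-3p, the single-base relative of miR171b, reached 3606.1 RPM in three-leaf crowns, 3043.5 in winter, 2000.8 at green-up and 1155.6 in jointing crowns. It was lower at every step, and green-up and jointing were 1.73-fold apart. Its rank was best at green-up, at 7, and poorest at jointing, at 11. Of the 142 miRNAs above 5 RPM in all 4 libraries, 32 (22.5%) had this same order of the stages, so the order alone is common in the table.

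For miR444b.1 the values were 1211 RPM in three-leaf crowns, 1107.2 in winter, 492.8 at green-up and 407.1 in jointing crowns. The three-leaf and dormancy libraries both lay above both spring libraries, as for the 2 abundant miR171 members. It ranked 20, 21, 28 and 23 among the 348 miRNAs.

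The remaining members were scarce. miR170-3p was listed at 6.1, 4.3, 2.2 and 2.1 RPM in the order of the stages, which corresponds to 132 or 133 reads at the three-leaf stage and to 43 or 44 at jointing. miR171k-5p was listed at 0.9, 2.2, 0.3 and 0.3 RPM, or 19 to 20, 45 to 46, 6 to 7 and 6 to 7 reads, where the deposited rounding leaves the last read undecided. It was the only member with its highest value at dormancy, where its interval of 1.60 to 2.99 RPM lay above that at the three-leaf stage, 0.528 to 1.43 RPM. Among the 17 miRNAs of the table above 0 in every library and never above 5 RPM, 6 were highest at dormancy and 6 at the three-leaf stage.

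**Figure D1:**
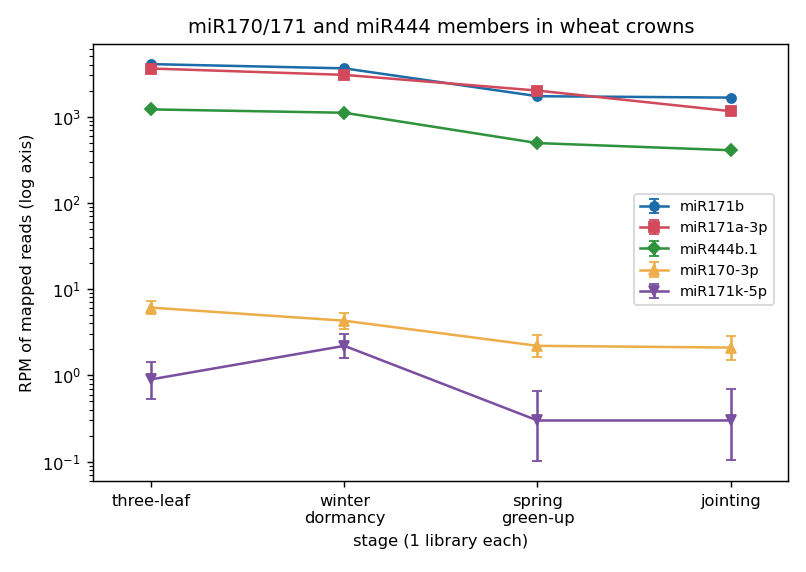
Deposited RPM (log axis) of the 5 members at the 4 stages, with 1 library a stage and bars for 95% Poisson intervals of the reads, widened by rounding. miR171b, miR171a-3p and miR444b.1 stand between 407.1 and 4056 RPM and are lower after winter, while miR170-3p stays under 7 RPM and miR171k-5p under 3 RPM.

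A miRNA was called lower or higher when its RPM differed by more than 2-fold and at least 1 of the libraries compared exceeded 5 RPM. These are the fold and level criteria of the study. The criterion on p was left out because the pooled libraries carry no replicates. A call is a size of difference between 2 libraries and not a test.

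From the three-leaf stage to winter dormancy no member was called. Of the 252 miRNAs above the level, 41 (16.3%) were called lower and 26 higher. The log2 changes were -0.24 for miR171a-3p (-0.26 to -0.23), -0.16 for miR171b (-0.18 to -0.15) and -0.13 for miR444b.1 (-0.15 to -0.10), beside a median of -0.01 over all miRNAs tested. miR170-3p, near the level limit, had -0.50 (-0.91 to -0.11). miR171k-5p was 2.44-fold higher at dormancy, but at a level below the limit.

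From dormancy to spring green-up, 2 of the 3 members above the level were called lower, miR444b.1 and miR171b, beside 28.8% of the 250 miRNAs tested. With 3 members tested, nothing is read from this share. miR444b.1 changed by -1.17 on the log2 scale (-1.20 to -1.13) and was 2.25-fold lower, and miR171b by -1.07 (-1.09 to -1.05), 2.10-fold lower. Both lie just beyond the threshold of 1. miR171a-3p changed by -0.61 (-0.62 to -0.59) and was not called. The median of all miRNAs tested was -0.28 and that of the 36 tested miRNAs of the 22 conserved plant families was -0.72.

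From green-up to jointing no member was called, while 90 (37.8%) of the 238 miRNAs tested were called lower and 39 higher. The order of the members was a different one at this step. miR171a-3p had the largest decline, -0.79 (-0.81 to -0.77), followed by miR444b.1 with -0.28 (-0.32 to -0.23) and miR171b with -0.05 (-0.08 to -0.03). The median over all miRNAs tested was -0.70, so miR171a-3p was close to the median of the table and the other 2 declined less than it.

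**Figure D2:**
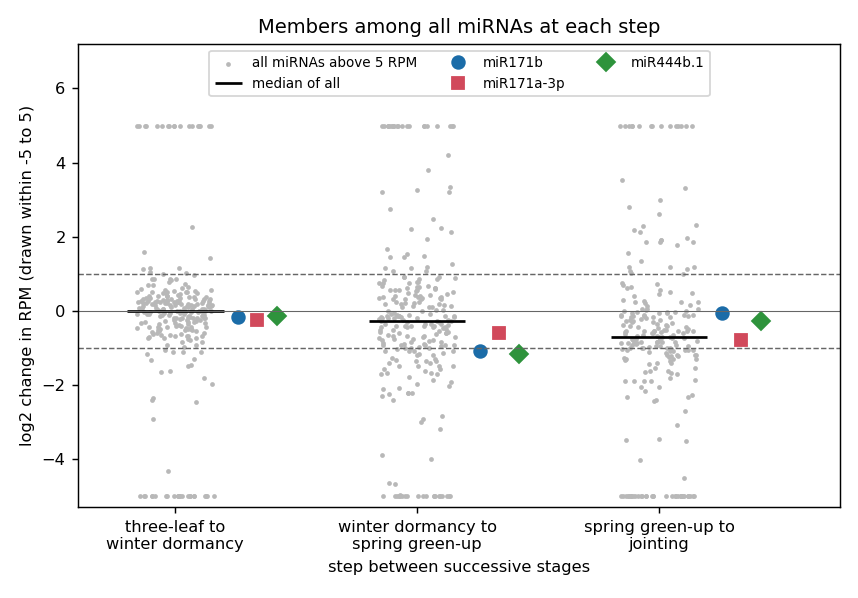
Log2 change in RPM at each step between successive stages for every miRNA above 5 RPM in either library (grey, drawn within -5 to 5), their median (black line) and the 3 abundant members. Dashed lines mark the 2-fold threshold. miR171b and miR444b.1 lie beyond it from dormancy to green-up only, at -1.07 and -1.17.

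Across the longer spans the calls followed from these steps. From the three-leaf stage to green-up, 3 of the 4 members above the level were called lower, beside 34.8% of the 256 miRNAs tested. They were miR170-3p (-1.47), miR444b.1 (-1.30) and miR171b (-1.24), and miR171a-3p stood at -0.85. From the three-leaf stage to jointing all 4 members above the level were called lower, beside 54.6% of 260. The log2 changes were -1.64 for miR171a-3p, -1.57 for miR444b.1, -1.54 for miR170-3p and -1.29 for miR171b, against a median of -1.25 over all miRNAs tested. From dormancy to jointing the 3 members above the level were called lower, beside 53.2% of 250, with values from -1.44 for miR444b.1 to -1.13 for miR171b. miR170-3p passed the level through its three-leaf value alone, which makes a lower call at another stage more likely. A change over the whole season of the size seen in these members was thus common in the table.

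As deposited, the members differed in when the change took place. miR171b had 83.1% of its whole log2 decline from the three-leaf stage to jointing in the step from dormancy to green-up, and miR444b.1 had 74.3%. For miR171a-3p this step held 36.9% and the next one 48.2%. The first step, into winter, held 8.22% to 14.9% in these 3 members. These shares hold for the RPM as deposited only. Scaled to the sum of all listed miRNAs, miR171b changed by -0.73 from dormancy to green-up and by -0.24 from the three-leaf stage to jointing. miR444b.1 then changed by -0.83 and -0.52, so in both the step exceeded the whole span. For miR171a-3p the values were -0.27 and -0.59.

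All these changes depend on the denominator. The listed miRNAs together made up 14.3% of the mapped reads at the three-leaf stage and 6.89% at jointing, so that scaling to their sum raises each log2 change from green-up to jointing by 0.64, and each from dormancy to green-up by 0.34. With that scaling, with a median ratio of miRNAs, or with the sum less miR159a.1 and miR168a-5p, neither miR171b nor miR444b.1 was called at the step from dormancy to green-up. miR171b then stood at -0.73, -0.86 and -0.34 and miR444b.1 at -0.83, -0.96 and -0.44, in the order of these scalings. Their direction at this step was kept. That of miR171a-3p was kept under the first 2 scalings (-0.27 and -0.40) and turned to 0.13 under the third.

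From green-up to jointing the scaling decided the direction of the other members. miR171b went from -0.05 as deposited to 0.58, 0.48 and 0.22 under the same scalings. miR444b.1 went from -0.28 to 0.36 and 0.26 and to a value near 0 (0.00069) under the third. miR171a-3p stayed negative at -0.15, -0.25 and -0.52. From the three-leaf stage to dormancy the median ratio brought miR444b.1 to 0.03 and miR171b to -0.0092, both near 0. With the other scalings both were negative, and miR171a-3p remained negative under each scaling.

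**Figure D3:**
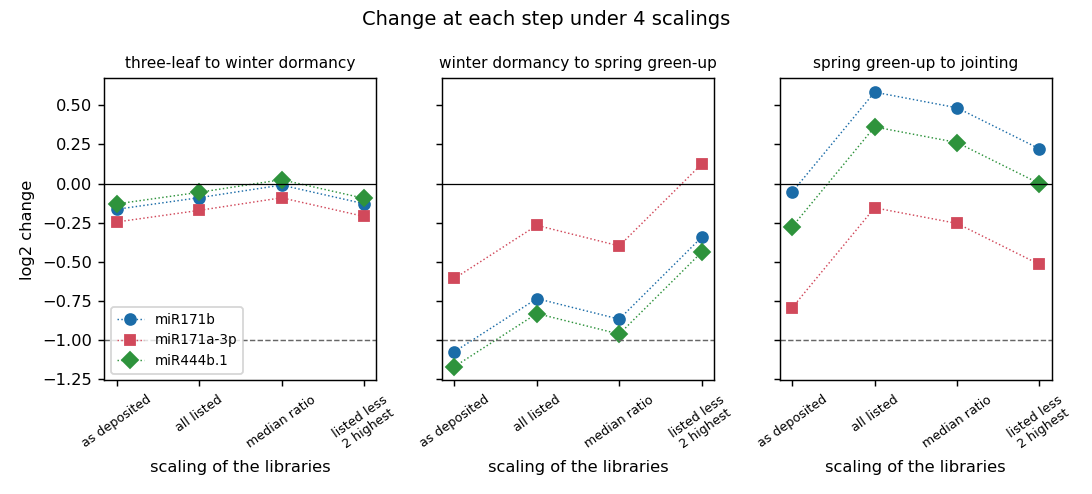
Log2 change of miR171b, miR171a-3p and miR444b.1 at each step, with the libraries as deposited, scaled to all listed miRNAs, scaled by the median ratio, and scaled to listed miRNAs less miR159a.1 and miR168a-5p (the 2 highest). The dashed line is the 2-fold threshold, which is passed only as deposited, and miR171b lies above 0 from green-up to jointing under the other 3 scalings.

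The ratio of members within a library does not depend on scaling. In three-leaf crowns miR171a-3p stood at 0.889 of miR171b (0.881 to 0.898), in dormant crowns at 0.840 (0.832 to 0.849), in greening crowns at 1.16 (1.15 to 1.18) and in jointing crowns at 0.697 (0.685 to 0.708). Green-up was the only library in which miR171a-3p exceeded miR171b. On the log2 scale the ratio changed by 0.47 from dormancy to green-up (0.44 to 0.49) and by -0.74 from green-up to jointing (-0.77 to -0.71), beyond counting error in both steps. Whether biological replicates would differ as much cannot be read from pooled libraries. Within the family, the share of miR171a-3p was 47.0%, 45.6%, 53.7% and 41.0% and that of miR171b 52.9%, 54.3%, 46.2% and 58.9%, in the order of the stages.

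miR444b.1 followed miR171b more closely than miR171a-3p did, although their sequences are unrelated. Its ratio to miR171b was 0.299, 0.306, 0.286 and 0.245 from the first to the last stage, a range of 1.25-fold over the 4 libraries. For miR171a-3p over miR171b this range was 1.67-fold. For miR444b.1 over miR171a-3p it was 1.48-fold, with ratios from 0.246 at green-up to 0.364 at dormancy.

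The scarce miR170-3p was set against both of its abundant relatives within each library. It amounted to 0.150% of miR171b in three-leaf crowns (0.126 to 0.178%), 0.119% in dormant ones (0.0949 to 0.146%), 0.128% at green-up (0.0939 to 0.169%) and 0.127% in jointing crowns (0.0927 to 0.171%). Against miR171a-3p, at 2 mismatches, the percentage ran from 0.110% at green-up (0.0808 to 0.145%) to 0.182% at jointing (0.133 to 0.246%). The percentage thus spanned 0.119% to 0.150% against miR171b and 0.110% to 0.182% against miR171a-3p. For either relative all 4 intervals overlap, but overlap of separate intervals does not show that there was no difference. Which relative miR170-3p kept closer to was not tested. Whether these reads came from a gene of their own or from reads of miR171b with a changed base was not tested.

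The proportion of miR171k-5p to miR171b was highest at dormancy. It was 0.0222% of miR171b in three-leaf crowns (0.0139 to 0.0351%), 0.0608% in dormant ones (0.0441 to 0.0810%), 0.0174% at green-up (0.00747 to 0.0383%) and 0.0181% in jointing crowns (0.00638 to 0.0379%). The dormancy interval lay above the other 3, and it rests on 45 to 46 reads in 1 library.

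**Figure D4:**
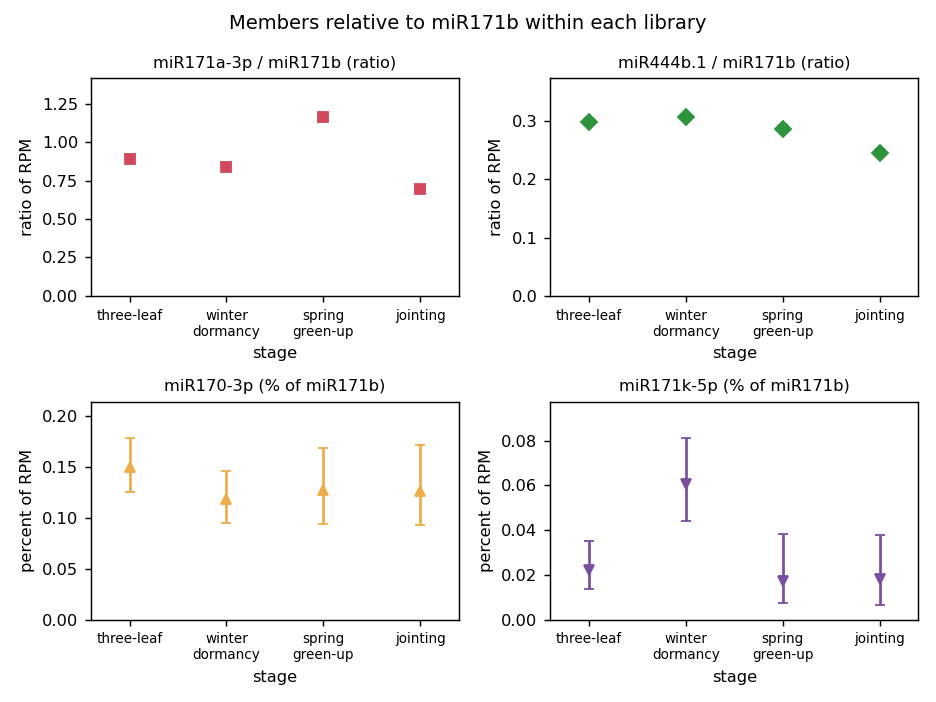
RPM of each other member relative to miR171b within each library, as a ratio (top) or a percent (bottom), with 95% exact binomial intervals of the reads, which are smaller than the symbols in the top row. miR171a-3p passes miR171b at green-up alone (1.16), miR170-3p stays between 0.119% and 0.150%, and miR171k-5p is highest at dormancy (0.0608%).

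Summed over members, miR170/miR171 had 7669.1, 6671.1, 3725.1 and 2816.6 RPM in the order of the stages. This was 5.37% (5.34 to 5.39%), 4.92% (4.89 to 4.94%), 3.47% (3.45 to 3.50%) and 4.08% (4.05 to 4.12%) of all listed miRNAs. The family ranked 3 among the 22 conserved families in the first 3 libraries and 4 at jointing. miR444 made up 0.848%, 0.816%, 0.459% and 0.590% of the listed miRNAs. It ranked 8 in the three-leaf and dormancy libraries and 10 at green-up and jointing. Both shares were lowest at green-up, where miR159a.1 held 42.1% of the sum, against 15.4% to 20.8% in the other libraries. With miR159a.1 and miR168a-5p left out of the sum, the share of miR170/miR171 was instead lowest at jointing, at 6.88%, and that of miR444 was 0.994% in both spring libraries.

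The miRNAs most like each abundant member were found by the root mean square difference of their 3 log2 ratios to the three-leaf library, over 141 other miRNAs above 5 RPM in all 4 libraries. Closest to miR171b were miR5071 (0.11), miR7757-5p (0.14) and miR6478 (0.16), with miR444b.1 next (0.17) and miR171a-3p at place 10 (0.31). miR7757-5p, for example, stood at 7455.9, 5976.9, 2804.9 and 3139.8 RPM, a drop between dormancy and green-up with no further decline. Closest to miR444b.1 were miR5071 (0.16), miR171b (0.17) and miR168a-5p (0.17), which regulates AGO1, the protein that carries most plant miRNAs. Closest to miR171a-3p were miR167e-3p (0.16), miR5568g-3p (0.20) and wheat_miR1890 (0.23), with miR444b.1 at place 8 (0.27) and miR171b at place 12 (0.31). The profiles have 3 ratios each and share the three-leaf library, so likeness is a description only.

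A list of other families tied to shoot branching in plants held 12 entries, of miR156, miR157, miR164, miR319, miR393 and miR535. From the three-leaf stage to jointing, 6 of the 10 entries above the level were called lower and 3 higher, beside 54.6% and 16.9% of the 260 miRNAs tested. From dormancy to green-up 2 of 10 were called lower and 3 higher, beside 28.8% and 17.2% of 250. Nothing particular to the list can be read from counts over 10 entries. Several of these calls rest on entries listed at 0 in 1 library, which were set to the value of 3 reads. miR156a-5p, which restrains SPL transcription factors, had 640 RPM at dormancy and 226.5 at green-up, a log2 change of -1.50. miR164a, which acts on NAC genes of organ and axillary meristem boundaries, went from 2353.8 to 1420.9 RPM (-0.73), between miR171a-3p and miR171b. miR319b-3p, which acts on TCP genes, went the opposite way from 114.5 to 1049.7 RPM (3.20), and miR393-5p, which acts on auxin receptor genes, had 282.2 and 352.5 RPM (0.32).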

How the data were processed

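Small RNA of 18 to 30 nt from 4 crown libraries was sequenced by the authors on a BGISEQ-500 platform. They removed reads of structural RNAs and repeats with SOAP and assigned known miRNAs by BLASTN to plant entries of miRBase 22.1. The deposited values are RPM (headed TPM), rounded by the authors to 1 decimal for known miRNAs and mostly 2 for wheat_miRNAs. Depth was recovered as the library size at which all 204 of 204 values with 2 decimals were whole reads within the rounding of 0.005 RPM. It came to at least 21674540, 20533400, 21888480 and 20800760 mapped reads in the order of the stages, and to at most 300 more.

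Fold changes were computed here on the deposited RPM for all 6 pairs of stages, with a value of 0 set to 3 reads. Intervals of 95% are exact Poisson (levels), exact binomial (changes, ratios, shares) or normal on the log scale (changes of ratios). They cover counting error only, since each stage has 1 pooled library. The reads carry no molecular identifiers, so copies from PCR amplification count as separate reads. The intervals may be too narrow for this reason too. Depth recovery and intervals were tested on simulated reads drawn as Poisson counts, without replicate spread or shared reads. This checks the computation only. The members, the lists and the rule for named miRNAs (all members, 4 branching-linked miRNAs and the 3 entries closest to each member) were chosen with earlier results of these data known. Alternatives covered scaling, pseudocount, level filter, fold threshold, rounding and the sums used as denominators. Python 3.11.15, numpy 2.4.6, scipy 1.17.1, matplotlib 3.10.9 and RNAduplex 2.7.2 were used. Genome positions and target mRNAs were not analysed here.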

Additional observations from a re-analysis of the deposited data

How the results depend on the processing

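No paired analysis was possible because each stage has 1 library. Calls depended on the scaling. Scaled to all listed miRNAs or by the median ratio, 1 member (miR170-3p) was called lower from the three-leaf stage to green-up, and 0 with the sum less miR159a.1 and miR168a-5p, against 3 as deposited. Where its call was kept, miR170-3p stood at -1.06 and -1.11, near the threshold. Its interval as deposited is wide (-1.98 to -0.99), and it passed the level through its three-leaf value alone. Under these 3 scalings 0 members were lower from the three-leaf stage to jointing, from dormancy to green-up or from dormancy to jointing, against 4, 2 and 3. The same scalings moved the median of all miRNAs from the three-leaf stage to jointing from -1.25 to -0.19, -0.35 and -0.20. A fold threshold of 4 left 0 in these 4 comparisons. A threshold of 1.5 gave 1 lower from green-up to jointing, miR171a-3p. Without a level filter, 1 member (miR171k-5p) was higher at dormancy than at the three-leaf stage and 5 were lower from dormancy to jointing. A pseudocount of 1 RPM and a level filter of 50 RPM kept every count of members within 1.5-fold. The share of all miRNAs called was not counted under these other settings, so nothing particular to the members is read from the counts. Of 120 log2 changes recomputed, 55 stayed within their interval, and no called one turned its sign. Under the 3 scalings, every change of miR171a-3p, miR171b and miR444b.1 left its interval. Those that stayed came from the pseudocount or from the scarce miR170-3p and miR171k-5p, whose intervals are wide.

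With miR159a.1 and miR168a-5p left out of the sum, miR170/miR171 held 9.09%, 8.11%, 7.51% and 6.88% and miR444 1.44%, 1.35%, 0.994% and 0.994%. Of the conserved families alone they held 9.25%, 8.79%, 5.20% and 6.73%, and 1.46%, 1.46%, 0.688% and 0.973%. Summing members of a family moved the conserved median to -1.36 from the three-leaf stage to jointing (main -1.49) and to -0.34 from green-up to jointing (main -0.13). The ratio of miR171a-3p to miR171b stayed within its interval with a pseudocount of 1 RPM or with miR170-3p added to miR171b. Those of miR170-3p and miR171k-5p to miR171b did so at the limits of rounding. These alternatives change the values too little to test the ratios. The division of reads between members was not varied. Depth limits miR171k-5p most, at 6 to 7 reads in each spring library.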
